A study of Mus musculus with 12 samples.

Results

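Of 23965 gene rows in a read-count table of cultured mouse embryonic midbrain cells, 28 genes of cholesterol synthesis, sterol transport and the sterol-sensing machinery were followed across 4 treatments. They were chosen by symbol, as mevalonate and sterol synthesis enzymes, sterol transport and storage genes, and genes that process sterol regulatory element-binding proteins (SREBPs). Every one had a single row, and all 28 passed the filter on low counts, as did 15608 rows in all. Neurospheres, floating clusters of neural progenitors and their progeny, were grown from ventral midbrain of E11.5 embryos (CD-1 strain). After expansion they spent 5 h in N2 medium with DMSO vehicle (control), with GW3965, with CT99021, or with both compounds. GW3965 is an agonist of the liver X receptors (LXRs), and CT99021 is an inhibitor of glycogen synthase kinase 3 (GSK3). Each of the 4 groups had 3 libraries of total RNA, numbered 1 to 3 in the labels, and no genotype other than the strain was given. The labels do not say whether the replicates were separate cultures or pools of embryos, so the p-values measure only the spread between these libraries.

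Cholesterol is built from acetyl-CoA through mevalonate and isoprenoid diphosphates to squalene, which is closed into lanosterol and then trimmed, oxidised and reduced to cholesterol. When membranes hold little sterol, SCAP carries SREBP2 from the endoplasmic reticulum to the Golgi, where a pair of proteases releases a fragment that switches on these genes, and INSIG proteins hold SCAP back when sterols are plentiful. LXRs are switched on by oxidised sterols and raise export and fatty acid genes, and GSK3 phosphorylates both beta-catenin, the effector of Wnt signalling, and nuclear SREBPs. In the developing midbrain, LXRs and their sterol ligands are known for a part in the birth of neurons.

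Library depth lay between 9646424 and 21314093 gene counts, and libraries of a group differed from each other by a chi-square of 28.2 to 136 per gene, where sampling noise alone gives about 1. Levels in CPM are a library's counts scaled by the product of its total gene counts and its TMM scaling factor. Libraries with the same number resembled each other across groups, and the libraries numbered 3 stood apart. The summed level of 6 mesenchyme and pericyte markers was 2410.2 to 3656 CPM in these 4 and 220.2 to 2147 CPM in the other 8. Markers of neural progenitors (8 of 8), of the ventral midbrain (6 of 6) and of neurons (4 of 4 listed in the table) were present in all 12 libraries. Summed microglia markers were at 6.37 to 20.3 CPM and endothelial markers at 21.4 to 49.5 CPM, while 4 erythroid markers summed to 174 to 1044 CPM. The library CT99021 replicate 1 also stood apart: the share of its gene counts from Lars2, which charges leucine tRNA in mitochondria, was 7.95%, against 0.0336% to 0.142% in the other 11, its share of repeat family counts was the highest (0.643%) and its TMM scaling factor the lowest (0.910). In such bulk samples, fewer cells of a type and less RNA per cell cannot be told apart.

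Per transcript length, the 28 genes spanned a wide range in control neurospheres. The highest level was that of Acat2, whose enzyme joins acetyl-CoA units at the entry to the pathway, at 89.4 ± 5.82 CPM per kb (SD, n = 3). Srebf2, which encodes SREBP2, followed at 70.1 ± 6.05 CPM per kb, and Sqle, the oxygen-dependent squalene epoxidase, at 66.1 ± 2.49 CPM per kb. Srebf2 and Sqle did not differ beyond their spread. Fdps, Mbtps1, Sc4mol, Cyp51, Npc2, Insig1, Idi1 and Fdft1 came next, with means of 32.5 to 44.5 CPM per kb and overlapping libraries between neighbours. The lowest were Hsd17b7 at 8.75 ± 0.842 CPM per kb and Ebp, the sterol isomerase, at 5.81 ± 0.517 CPM per kb, which did not overlap.

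**Figure D1:**
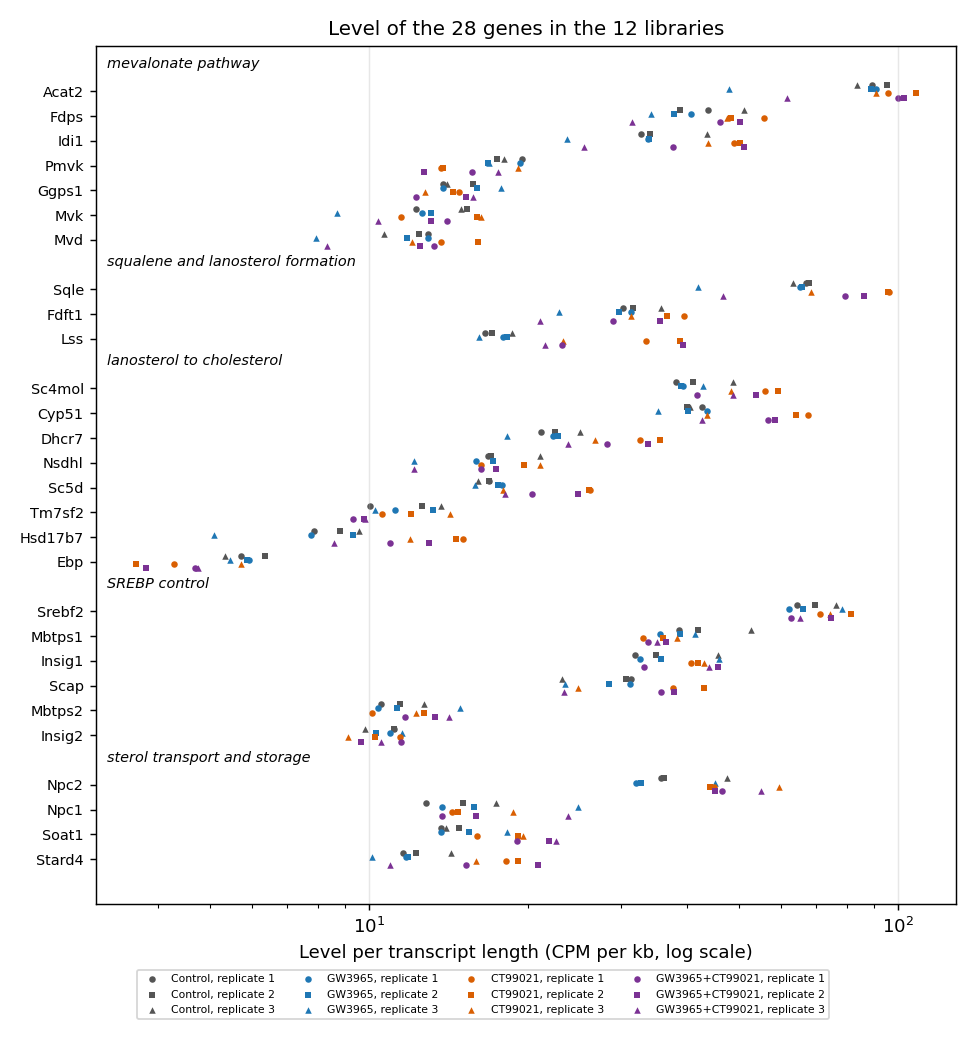
Level of each of the 28 genes per kb of transcript in each of the 12 libraries (horizontal log axis, CPM per kb), grouped by role and ordered by the control mean; colour gives the group and marker shape the replicate number. Acat2 lies highest and Ebp lowest among control libraries, and several enzymes have the replicate 3 libraries of GW3965 and of both compounds (triangles) at the low end.

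RefSeq promoter windows of the GRCm38.p6 build, from 250 bases before to 50 after a transcription start, were at hand for 23 of the 28 genes (29 windows). SREBPs are weak activators alone and are known to work with factors that bind CCAAT boxes (NF-Y) and GC boxes (Sp1), so these letters were searched on both strands. The CCAAT box (CCAAT) was in 65.5% of the 29 windows and in 37.4% of 32851 mouse promoter windows. The GC box (GGGCGG) was in 79.3% of the 29 windows, in 35.7% of all windows and in 60.5% of the windows of tested genes. All 8 genes of the lanosterol-to-cholesterol steps held both in at least 1 window, against 3 of 6 SREBP control genes with a CCAAT box and 5 of 6 with a GC box. These counts are per gene over 1 to 3 windows, and no share per gene was computed over all genes. One classical sterol regulatory element (TCACNCCAC) was in none of the 29 windows and in 1.24% of all windows, and a TCF/LEF core (CTTTGA) was in 10.3% of the 29 windows, 16% of all windows and 12.1% of the windows of tested genes. No matches of different motifs overlapped in the member windows. Such matches describe letters in the window and are not measured binding sites.

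The 250 bases before the start are shown for 4 sterol enzymes that rose with CT99021, for Mvk and for Mbtps1, the gene that fell. Mvk did not pass the test and holds the most CCAAT boxes. Mbtps1 has no CCAAT box in its window, and neither do Acat2, Scap and Mbtps2, which did not pass the test and had log2 fold changes above 0 with CT99021. Whether these letters relate to the response was not tested. Capitals mark CCAAT and GC boxes on either strand (ATTGG and CCGCCC on the other strand). The windows lie at chr10:76531355-76531604 (plus strand, Lss), chr5:4104698-4104947 (minus, Cyp51), chr1:169969206-169969455 (minus, Hsd17b7), chr9:42264301-42264550 (minus, Sc5d), chr5:114444019-114444268 (plus, Mvk) and chr8:119558762-119559011 (minus, Mbtps1), each read 5′ to 3′ along the gene.
Lss: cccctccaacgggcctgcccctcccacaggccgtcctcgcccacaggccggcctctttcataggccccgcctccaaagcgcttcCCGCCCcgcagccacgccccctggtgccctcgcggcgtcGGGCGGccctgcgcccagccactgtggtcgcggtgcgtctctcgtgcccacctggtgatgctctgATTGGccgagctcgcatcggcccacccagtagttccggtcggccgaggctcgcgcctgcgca
Cyp51: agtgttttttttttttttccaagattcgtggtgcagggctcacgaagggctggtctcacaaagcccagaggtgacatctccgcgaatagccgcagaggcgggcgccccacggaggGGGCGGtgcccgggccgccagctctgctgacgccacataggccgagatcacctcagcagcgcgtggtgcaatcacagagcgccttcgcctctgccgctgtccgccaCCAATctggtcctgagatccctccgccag
Hsd17b7: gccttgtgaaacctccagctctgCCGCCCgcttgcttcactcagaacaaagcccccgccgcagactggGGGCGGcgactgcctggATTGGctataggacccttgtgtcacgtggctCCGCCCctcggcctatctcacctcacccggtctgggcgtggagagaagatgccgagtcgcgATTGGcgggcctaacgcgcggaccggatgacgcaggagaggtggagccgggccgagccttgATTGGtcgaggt
Sc5d: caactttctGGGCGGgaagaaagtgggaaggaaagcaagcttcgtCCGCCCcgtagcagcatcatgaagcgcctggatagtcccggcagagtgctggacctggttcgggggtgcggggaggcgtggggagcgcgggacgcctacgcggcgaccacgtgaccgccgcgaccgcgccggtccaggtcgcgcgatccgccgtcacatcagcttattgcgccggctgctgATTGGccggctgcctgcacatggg
Mvk: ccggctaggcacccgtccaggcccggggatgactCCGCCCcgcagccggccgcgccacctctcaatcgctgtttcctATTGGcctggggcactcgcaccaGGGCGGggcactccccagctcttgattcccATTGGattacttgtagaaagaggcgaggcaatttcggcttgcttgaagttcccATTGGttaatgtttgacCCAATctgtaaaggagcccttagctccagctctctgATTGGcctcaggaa
Mbtps1: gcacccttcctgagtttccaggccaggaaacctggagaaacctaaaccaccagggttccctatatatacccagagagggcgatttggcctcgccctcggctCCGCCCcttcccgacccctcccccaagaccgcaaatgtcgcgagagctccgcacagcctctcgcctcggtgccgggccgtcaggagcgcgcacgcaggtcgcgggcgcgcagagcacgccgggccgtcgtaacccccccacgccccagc
The CCAAT box nearest to the start began 62 bases before it in Lss, 29 in Cyp51, 12 in Hsd17b7, 24 in Sc5d and 14 in Mvk, which holds 5 of them.

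Lanosterol synthase, 4 of the 8 enzymes of the lanosterol-to-cholesterol steps, the lysosomal carrier Npc2 and the storage enzyme Soat1 were higher with CT99021 in the fit that takes the replicate number as a block. Of the 28 genes, 7 rose and 1 fell against control, or 28.6%, while 15.8% of all 15608 tested genes passed the same test (8.23% higher and 7.59% lower). Without the replicate block none of the 28 passed edgeR's test, as 0.0577% of all genes did, and 9 had an unadjusted p under 0.05 (32.1%, against 9.7% of all genes). DESeq2 without the block called 1 of them, Lss (3.57%, against 2.29% of the genes it gave an adjusted p), and limma-voom called 0, beside 0.0577% of all genes. DESeq2 with the block called 12 (42.9%, against 19.6%). The log2 fold change was above 0 in 23 of the 28 genes against 52.5% of all genes, with a median of 0.18 against 0.02.

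Lanosterol synthase (Lss), which closes oxidised squalene into the first sterol, had the greatest fold change of the 28, with 381 of its exon bases shared with an antisense gene whose reads may be counted in. Its level was 53.2, 54.6 and 59.7 CPM in the control libraries numbered 1 to 3 and 107, 124 and 74.4 CPM with CT99021. All 3 CT99021 libraries lay above all 3 controls, with the library numbered 3 closest to them. The log2 fold change was 0.83 ± 0.18 (SE; 1.78-fold; adjusted p = 0.0128, edgeR's quasi-likelihood test with the replicate block). The files list Lss on chromosome 10 at 75994271 (mm9, plus strand). The gene before it in the pathway, Sqle, went from 180.2 to 194 CPM in control libraries to 195 to 274 CPM, a log2 fold change of 0.36 ± 0.12 that missed the threshold (adjusted p = 0.0736). Fdft1, squalene synthase, had 0.13 ± 0.15.

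Of the 8 genes that turn lanosterol into cholesterol, 4 rose, with a median log2 fold change of 0.41 over the 8. Cyp51, the lanosterol demethylase, was at 189, 178 and 180.0 CPM in control libraries and at 301, 285 and 194 CPM with CT99021, so libraries 1 and 2 were well above control and library 3 only just. Its log2 fold change was 0.49 ± 0.10 (adjusted p = 0.0136, edgeR with the block). Hsd17b7, a sterol ketoreductase, was at 36.9, 41.1 and 44.7 CPM in control libraries and at 70.2, 68.2 and 55.9 CPM with CT99021, with no overlap, and rose by 0.65 ± 0.16 (adjusted p = 0.0225, edgeR with the block). Sc5d, the sterol desaturase, was at 39.5, 39.6 and 37.8 CPM in control libraries and at 61.6, 61.2 and 42.0 CPM with CT99021, and rose by 0.48 ± 0.11 (adjusted p = 0.0164, edgeR with the block). Dhcr7, which makes cholesterol from its last precursor, was at 61.6, 65.5 and 73.1 CPM in control libraries and at 94.7, 104 and 78.1 CPM with CT99021, and rose by 0.45 ± 0.12 (adjusted p = 0.0289, edgeR with the block). In each of these genes the CT99021 library numbered 3 was the lowest of its group. Their mm9 positions are chromosome 5 at 4080673 (Cyp51), 1 at 171879667 (Hsd17b7), 9 at 42062259 (Sc5d) and 7 at 151008971 (Dhcr7), and 166 exon bases of Cyp51 overlap Akap9 on the other strand.

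The other 4 genes of these steps did not pass. Sc4mol, the sterol methyl oxidase now named Msmo1, had a log2 fold change of 0.36 ± 0.11 (adjusted p = 0.054, edgeR with the block). The decarboxylating Nsdhl and the reductase Tm7sf2 were near 0, at 0.06 ± 0.16 and 0.02 ± 0.13. Ebp lay on the other side, at 7.9, 6.67 and 10.6 CPM with CT99021 against 10.6, 11.7 and 9.83 CPM in control libraries. Its libraries 1 and 2 were below all controls and library 3 was among them, with a log2 fold change of -0.37 ± 0.17.

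None of the 7 mevalonate pathway genes passed with CT99021. Idi1, the isopentenyl diphosphate isomerase, was at 146, 149 and 129.9 CPM against 96.9, 101 and 129 CPM in control libraries, so that library 3 was level with its control, and its value was 0.36 ± 0.20. Mvd (0.22 ± 0.12), Fdps (0.18 ± 0.15), Acat2 (0.14 ± 0.15) and Mvk (0.05 ± 0.18) had positive log2 fold changes. Ggps1, which makes geranylgeranyl diphosphate for protein prenylation, had -0.05 ± 0.11, and Pmvk, phosphomevalonate kinase, had -0.24 ± 0.13.

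**Figure D2:**
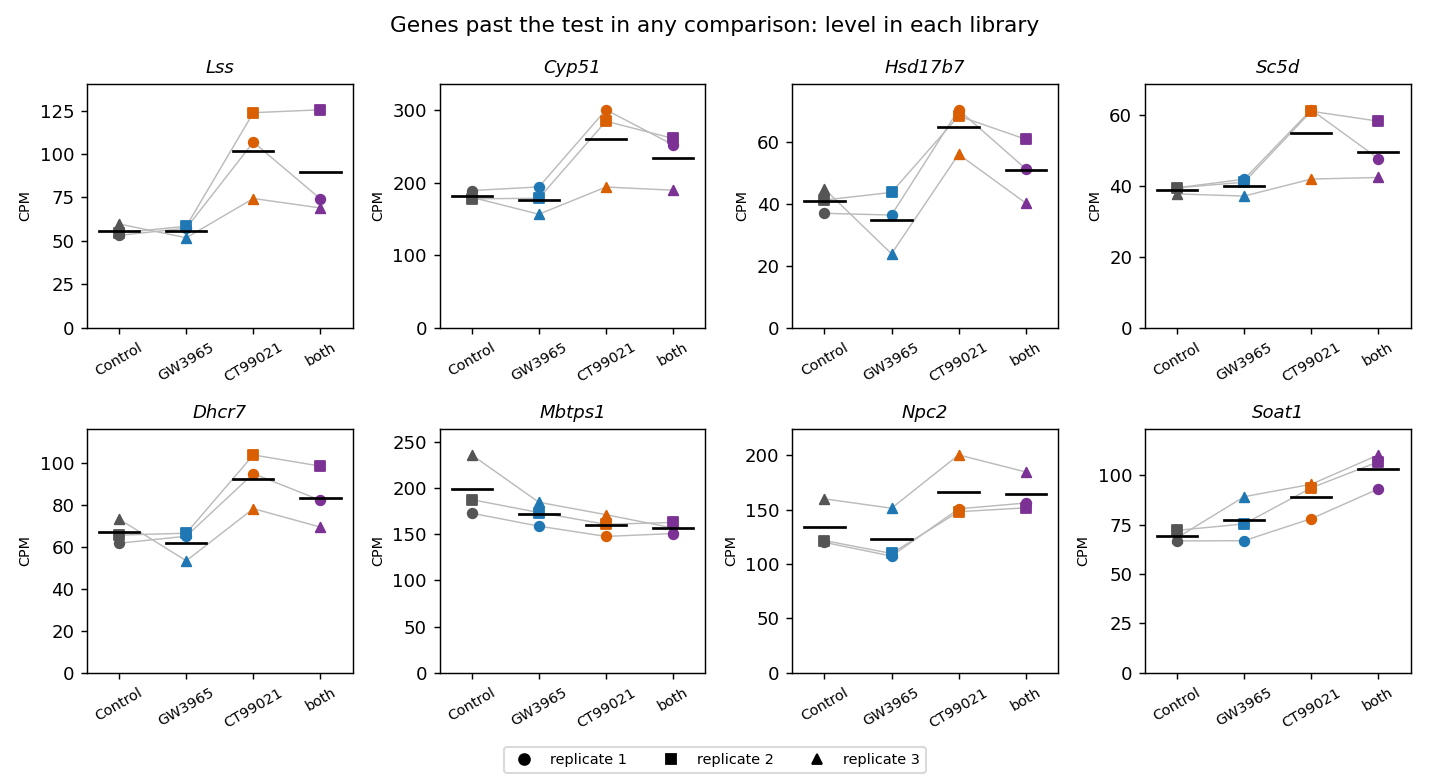
CPM in each library (vertical axes, from 0) of the 8 genes that passed the test with the replicate block in at least 1 comparison; marker shape is the replicate number, grey lines join libraries of one number, and black bars are group means (n = 3). In Lss, Cyp51, Sc5d and Dhcr7 the CT99021 library numbered 3 lies nearest to control, whereas Soat1 is highest with both compounds in every number.

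Among the 6 SREBP control genes, 1 fell and none rose. Mbtps1, the protease that makes the first cut in SREBPs, was at 173, 187 and 236 CPM in control libraries and at 148, 161 and 171 CPM with CT99021. The groups did not overlap, and the log2 fold change was -0.31 ± 0.08 (adjusted p = 0.0255, edgeR with the block). Mbtps2, which makes the second cut, had 0.02 ± 0.08. Scap, the escort, had 0.29 ± 0.09 (adjusted p = 0.0565, edgeR with the block). Insig1, itself an SREBP target, had 0.18 ± 0.10, Srebf2 had 0.11 ± 0.08 and Insig2 had -0.06 ± 0.10.

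Of the 4 transport and storage genes, 2 rose with CT99021. Npc2, which binds cholesterol in the lysosome lumen, was at 120.0, 122 and 160.0 CPM in control libraries and at 151, 148 and 200.4 CPM with CT99021. The groups overlapped because library 3 was high in both, yet each CT99021 library exceeded the control of its number, with a log2 fold change of 0.31 ± 0.06 (adjusted p = 0.00984, edgeR with the block). Soat1, which esterifies cholesterol for storage, was at 66.8, 72.1 and 68.4 CPM in control libraries and at 78.0, 93.6 and 95.5 CPM with CT99021, without overlap, and rose by 0.36 ± 0.08 (adjusted p = 0.0138, edgeR with the block). Stard4, a cytosolic sterol carrier, had 0.47 ± 0.17 (adjusted p = 0.0796, edgeR with the block), with libraries at 56.1, 59.0 and 49.2 CPM above controls at 35.7, 37.9 and 44.1 CPM. Npc1, the membrane partner of Npc2, had 0.08 ± 0.10.

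Counted over all 28 genes, 13 were higher with CT99021 in 3 of 3 numbers (46.4%, against 28.5% of all genes) and 1, Mbtps1, was lower in 3 of 3 (3.57%, against 25.6%). In 9 genes all CT99021 libraries lay above all controls (32.1%, against 7.22% of all genes). Beside these changes, 4 of 8 neural progenitor markers and 2 of 6 ventral midbrain markers fell with CT99021, and 1 of 6 mesenchyme markers rose. Of the other marker lists, 1 of 4 neuron markers rose and 1 fell, 1 of 4 endothelial and 1 of 3 microglia markers fell, and 0 of 4 erythroid markers passed. Their part in the result was not tested. The 8 calls depended on single libraries: leaving out Control replicate 2 gave 0 (beside 4.11% of all genes), leaving out Control replicate 1 or CT99021 replicate 2 gave 1 (4.72% and 7.03%), and leaving out CT99021 replicate 1 gave 2 (6.82%). Without CT99021 replicate 1, the library high in Lars2, Npc2 and Soat1 passed, at 0.31 and 0.38. The others had 0.73 (Lss), 0.42 (Cyp51), 0.58 (Hsd17b7), 0.39 (Sc5d), 0.42 (Dhcr7) and -0.31 (Mbtps1), with adjusted p of 0.0536 to 0.101 in edgeR with the block.

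GW3965 alone changed none of the 28 genes at the threshold, with 0.0192% of all genes called in the fit with the replicate block. An unadjusted p under 0.05 was reached by 2 of the 28 (7.14%, against 2.47% of all genes), and DESeq2 with the block called 0, beside 0.0422% of the genes it tested. Without the block, edgeR, DESeq2 and limma-voom called 0 of the 28 (0%, 0.00941% and 0% of all genes), and edgeR gave 0 an unadjusted p under 0.05 (0.147% of all genes). The same libraries did respond to the agonist in known LXR targets: the sterol exporters Abca1 and Abcg1 rose by 1.89 ± 0.17 and 1.92 ± 0.23 log2 units and Srebf1 by 1.40 ± 0.09 (adjusted p = 0.00387, 0.0322 and 0.000264, edgeR with the block). The pair with an unadjusted p under 0.05 were Mbtps1, at -0.20 ± 0.08, and Npc1, at 0.23 ± 0.10.

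The GW3965 values of the enzymes differed by number. In numbers 1 and 2 the median log2 ratio to control over the 18 enzymes was 0.04 and -0.02, and in number 3 it was -0.44, with 2 of 18 above 0. Acat2 shows the pattern, at 198, 193 and 104 CPM with GW3965 against 194, 207 and 182 CPM in control libraries. Idi1 was at 99.8, 100.2 and 70.2 CPM against 96.9, 101 and 129 CPM, and Sqle at 186, 188 and 119 CPM against 191, 194 and 180.2 CPM. In all 3 genes the GW3965 library numbered 3 was the lowest of the 6. Outside synthesis, Stard4 (0.02, -0.05 and -0.49 in numbers 1 to 3) and Mbtps1 (-0.12, -0.11 and -0.35) also had low ratios in number 3. The other 8 genes there had ratios of -0.08 (Npc2) to 0.51 (Npc1) in number 3, and the median over the 6 SREBP control genes was 0.03. In the fit, the 7 mevalonate pathway genes had a median log2 fold change of -0.25 and 7 of the 28 genes were above 0, where 49.2% of all genes were. Because 1 library stands behind number 3 in each group, whether the response differed by number was not tested.

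**Figure D3:**
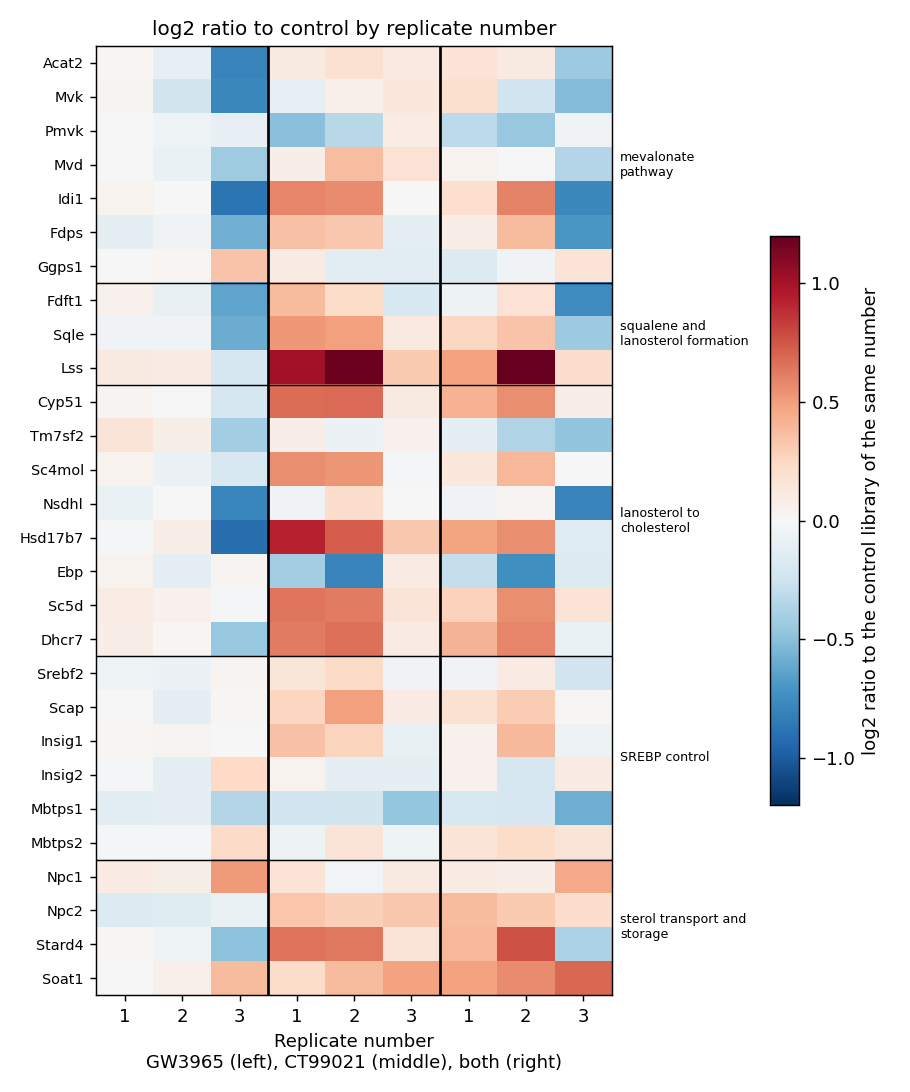
Log2 ratio of each treated library to the control library of the same number (colour scale, red higher and blue lower) for the 28 genes (rows, by role) and 3 numbers (columns) in GW3965 (left), CT99021 (middle) and both compounds (right). Red in numbers 1 and 2 of CT99021 is mostly in the sterol enzymes, and blue in number 3 of GW3965 and of both compounds is mostly in the same rows.

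With both compounds, 4 of the 28 genes rose against control and 1 fell in the fit with the replicate block, or 17.9%, while 20.3% of all genes passed (11.3% higher and 8.95% lower). The share of members was thus no higher than that of all genes. Without the block edgeR called none of the 28, as 0.115% of all genes passed, and 3 had an unadjusted p under 0.05 (10.7%, against 12% of all genes). DESeq2 without the block called 1, Soat1 (3.57%, against 3.14% of the genes it tested), limma-voom called 0 (0.154% of all genes), and DESeq2 with the block called 6 (21.4%, against 23.6%). The genes that rose were Soat1, Lss, Cyp51 and Npc2, and Mbtps1 fell.

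Soat1 was at 93.1, 107 and 110.3 CPM with both compounds, above every control and, within each number, above CT99021 alone. Its log2 fold change against control was 0.58 ± 0.08 (adjusted p = 0.00152, edgeR with the block). Npc2 was at 156, 152 and 185 CPM and rose by 0.30 ± 0.06 (adjusted p = 0.00854, edgeR with the block). Lss was at 74.1, 125 and 69.0 CPM, so that library 2 stood far above the others and all 3 above control, and rose by 0.64 ± 0.18 (adjusted p = 0.0298, edgeR with the block). Cyp51 was at 252, 261 and 189.8 CPM, with library 3 just above the highest control, and rose by 0.35 ± 0.10 (adjusted p = 0.0411, edgeR with the block). Mbtps1 was at 151, 163 and 157 CPM, below all controls, and fell by 0.33 ± 0.08 (adjusted p = 0.0153, edgeR with the block).

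Of the 3 other enzymes that rose with CT99021 alone, Sc5d was at 47.8, 58.4 and 42.5 CPM with both compounds (0.34 ± 0.11, adjusted p = 0.0508), Dhcr7 at 82.1, 98.3 and 69.3 CPM (0.30 ± 0.12, adjusted p = 0.0937) and Hsd17b7 at 51.2, 60.7 and 40.2 CPM (0.29 ± 0.16, adjusted p = 0.224, all edgeR with the block). In Sc5d all 3 libraries were above control, and in the others library 3 was not. The 7 mevalonate genes had a median log2 fold change of -0.07 against control. Ebp had -0.41 ± 0.17, Tm7sf2 -0.31 ± 0.13 and Pmvk -0.27 ± 0.13, none of them past the threshold. Of the 6 mesenchyme markers, 4 rose with both compounds against control, and their summed level was 889 to 2997 CPM against 220.2 to 2785 CPM in control libraries, with overlap. Of the other marker lists, 5 of 8 neural progenitor, 2 of 6 ventral midbrain, 1 of 4 neuron, 1 of 3 microglia and 1 of 4 erythroid markers fell. Their part in these results was not tested. The 5 calls became 2 without Control replicate 1 (beside 8.37% of all genes), 3 without Control replicate 2 (7.42%), GW3965+CT99021 replicate 2 (9.63%) or GW3965+CT99021 replicate 3 (13.6%), and 8 without Control replicate 3 (13%).

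The effect of CT99021 can be read a second time in libraries that do not overlap with the first, as both compounds against GW3965 alone. Both readings come from the same fit, with a shared estimate of the spread and the same replicate numbers. Calls shared by them are therefore not an independent replication. There 6 of the 28 genes rose and none fell, or 21.4%, where 20.6% of all genes passed (11.8% higher and 8.81% lower). They were Npc2 (0.43 ± 0.06, adjusted p = 0.00192), Soat1 (0.43 ± 0.08, adjusted p = 0.00482), Cyp51 (0.40 ± 0.10, adjusted p = 0.0226), Lss (0.65 ± 0.18, adjusted p = 0.028), Dhcr7 (0.43 ± 0.12, adjusted p = 0.0287) and Hsd17b7 (0.55 ± 0.16, adjusted p = 0.0347, all edgeR with the block). Without the block none of the 28 passed edgeR's test (0.0769% of all genes did), 7 had an unadjusted p under 0.05 (25%, against 11.3% of all genes), and DESeq2 and limma-voom called 0 (2.8% and 0.0833% of all genes). DESeq2 with the block called 6 (21.4%, against 22.4%). Hsd17b7 was at 36.3, 43.6 and 23.8 CPM with GW3965 alone, so that each library with both compounds lay above the one of its number, though the groups overlapped. Dhcr7 was at 65.0, 66.4 and 53.3 CPM with GW3965 alone, below all libraries with both compounds. Cyp51 with GW3965 alone was at 194, 179 and 157 CPM, Lss at 57.3, 58.4 and 51.8 CPM, Soat1 at 66.9, 75.4 and 89.2 CPM, and Npc2 at 107, 109.8 and 151 CPM.

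All 6 were also called for CT99021 against control, which is 75% of the 8 called there and 100% of the 6 called here. For all genes the shared calls were 76.6% and 58.9%. The sign was the same in both readings for 25 of 28 genes (89.3%, against 78.5% of all genes). Sc5d and Mbtps1 passed in the first reading, and their values in the second were 0.30 ± 0.11 and -0.13 ± 0.08. Here too 4 of 6 mesenchyme markers rose and 6 of 8 neural progenitor and 3 of 6 ventral midbrain markers fell, as did 1 of 4 endothelial and 1 of 3 microglia markers, and their part was not tested. The 6 calls became 2 without GW3965 replicate 1 (beside 8.8% of all genes) or GW3965+CT99021 replicate 2 (10.3%), and 3 without GW3965 replicate 2 (9.37%) or GW3965+CT99021 replicate 1 (13.1%).

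The effect of GW3965 on top of CT99021 passed in none of the 28 genes with the block, with 0.0192% of all genes called, and 6 had an unadjusted p under 0.05 (21.4%, against 6.51% of all genes). DESeq2 with the block called 0 (0.0759% of the genes it tested), and edgeR, DESeq2 and limma-voom without it called 0 (0%, 0.00941% and 0%), with 0 at an unadjusted p under 0.05 in edgeR, where 1.06% of all genes were. The log2 fold change was above 0 in 5 of the 28 genes, against 50.8% of all genes, and 10 were lower in 3 of 3 numbers (35.7%, against 11.3% of all genes). Tm7sf2 had -0.34 ± 0.13, Fdft1 -0.34 ± 0.15, Hsd17b7 -0.36 ± 0.16, Sqle -0.31 ± 0.12 and Mvd -0.31 ± 0.12. Soat1 had 0.22 ± 0.08, the highest value of the 28. Set beside GW3965 against control, which uses other libraries, 21 genes were below 0 in both readings (75%, against 29.3% of all genes) and 26 had the same sign (92.9%, against 58.5%). Both readings come from the same fit and include a library numbered 3 in each group. Over the 18 enzymes, the median log2 ratios in numbers 1 to 3 were -0.26, -0.10 and -0.50 on top of CT99021. Against control they were 0.04, -0.02 and -0.44, with 17, 11 and 9 of the 28 genes above 0. The signs of the fit against control were thus not shared by all numbers.

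The effect of CT99021 with GW3965 was also set against that without it. This interaction test called 0 of the 28 and 0% of all genes, with and without the block, and no member had an unadjusted p under 0.05 in edgeR, where 3.34% of all genes did with the block; DESeq2 called 0 of the 28 as well, beside 0.00937% with the block and 0% without it. The lowest p among them was 0.137 for Mbtps1, with an interaction of 0.17 ± 0.11, and Lss had -0.19 ± 0.25. Whether differences of that size could be detected with these libraries was not tested.

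**Figure D4:**
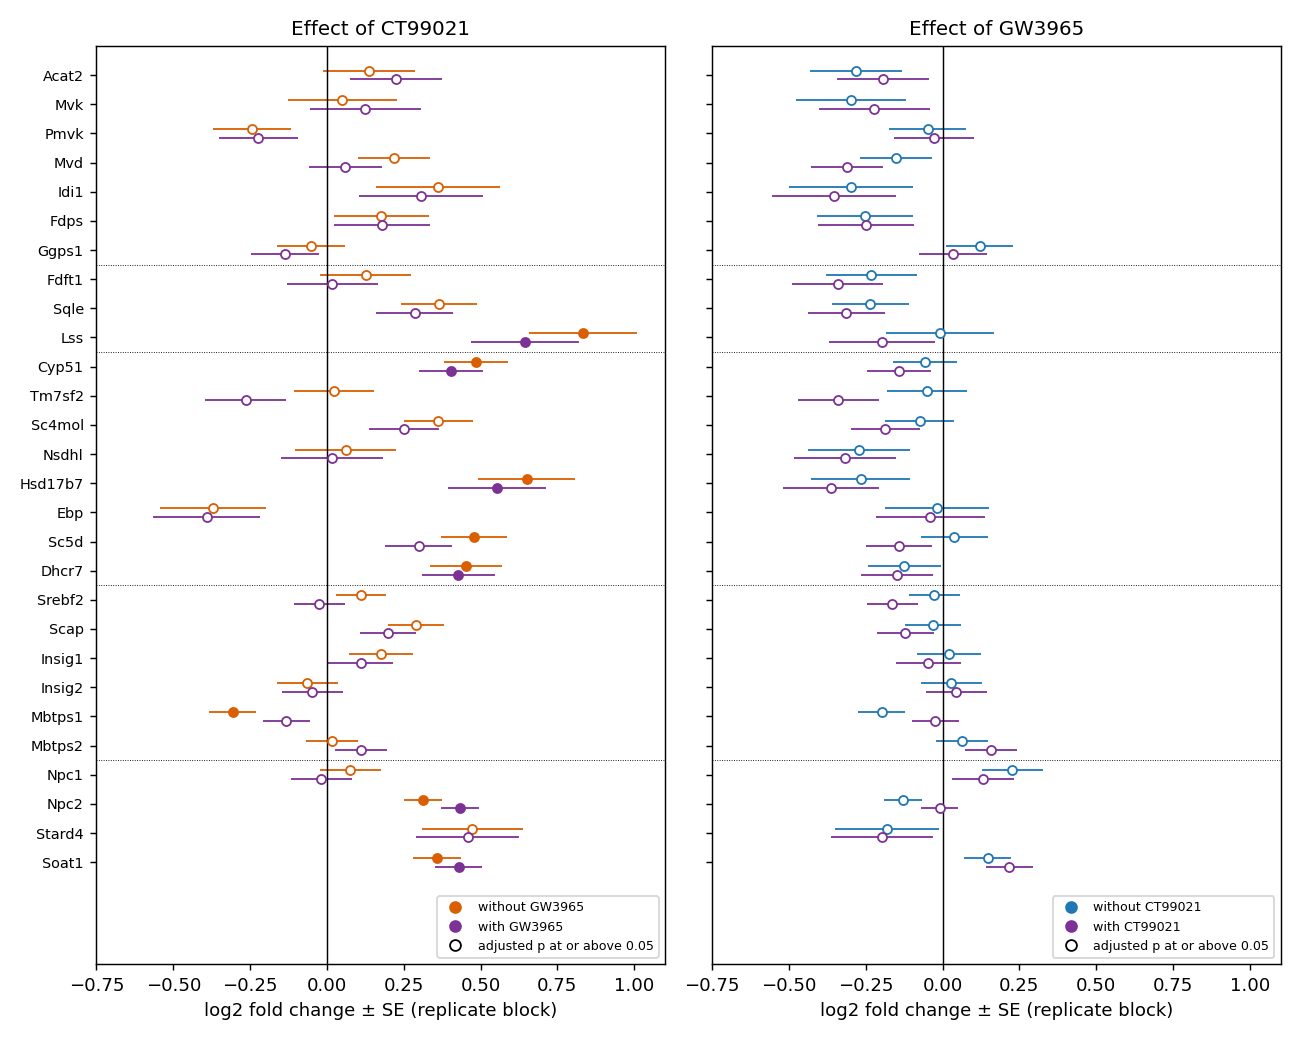
Log2 fold change ± SE (horizontal axes) of the 28 genes in the fit with the replicate block, for CT99021 without and with GW3965 (left) and for GW3965 without and with CT99021 (right); filled points passed at an adjusted p under 0.05. Filled points lie only in the left panel, for Lss, 4 later sterol enzymes, Npc2 and Soat1 above 0 and Mbtps1 below, and most points of the right panel lie below 0.

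The counts of called genes were higher without the libraries numbered 3. With those 4 libraries left out and the block kept, CT99021 against control called 16 of the 28 genes, 13 higher and 3 lower. Beside them stood 25% of all genes (12.6% higher and 12.4% lower). The 8 calls above were among them, and Sqle (0.49), Sc4mol (0.53), Stard4 (0.63), Idi1 (0.56), Scap (0.37) and Fdps (0.32) joined those that rose. Pmvk and Ebp joined Mbtps1 on the lower side, by -0.43 and -0.64. Both compounds against control then gave 13 calls, 10 higher and 3 lower, beside 25.1% of all genes, and both compounds against GW3965 gave 13, 11 higher and 2 lower, beside 28%. GW3965 against control gave 0, beside 0.0194% of all genes, and both compounds against CT99021 gave 0, beside 0.0581% (0.0516% higher). By number, the median log2 ratio of CT99021 to control over the 8 lanosterol-to-cholesterol genes was 0.59, 0.58 and 0.10 in numbers 1, 2 and 3, while Soat1 had 0.22, 0.38 and 0.48. Those 8 genes thus had their smallest median ratio in the libraries left out, and the higher count is not separate support for a rise.

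Related genes outside the 28 are set beside the shares of all genes called. These were 8.23% higher and 7.59% lower with CT99021, 11.3% and 8.95% with both compounds, and 0.0192% and 0% with GW3965. Of 13 genes listed for fatty acid synthesis and related lipid steps, also linked to SREBPs, 5 rose with CT99021 and 1 fell. The strongest were Scd1 (0.73 ± 0.10), a desaturase, Fasn (0.61 ± 0.11), the fatty acid synthase, and Scd2 (0.44 ± 0.11), and Lpin1 fell by 1.07 ± 0.18. With both compounds 7 of the 13 rose, led by Scd1 at 1.28 ± 0.10, and Lpin1 fell by 1.18 ± 0.18, while GW3965 alone changed 0 of 13 at the threshold. Of 8 genes of LXR and its sterol targets, 3 rose with GW3965. With CT99021, Srebf1 (0.42 ± 0.09) and Lpcat3 (0.40 ± 0.08) rose, and Abcg1 fell by 1.08 ± 0.25. Abca1 was at 39.1, 27.3 and 113 CPM in control libraries and at 106, 123 and 475 CPM with GW3965, highest in the library numbered 3 of both groups. Of 12 genes for sterol uptake, carriers and export from lysosomes, 1 rose with CT99021 and 1 fell, near the shares of all genes. Scarb1, a lipoprotein receptor, rose by 0.55 ± 0.08, and Lrp1, an endocytic receptor, fell by 0.27 ± 0.07. All these values are from edgeR with the replicate block.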

How the data were processed

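RNA-seq libraries were made from total RNA with Illumina TruSeq kits, per the labels' protocols. The deposited values are raw counts of reads, 1 table over genes and repeat families. Per the submitters' processing notes the tool named is Bowtie and the build mm9; counter, annotation and strand use are not given in these sources. Repeat family rows (0.196% to 0.643% of counts) were left out. Counts of 12 libraries were fitted together in edgeR 4.0.16 (R 4.3.3) with TMM factors, filterByExpr (15608 genes kept) and quasi-likelihood F tests. Adjusted p-values are Benjamini-Hochberg over all genes tested, called under 0.05. SE is the log2 fold change over the root of F, ratios by number use a prior count of 2, and levels per length divide CPM by the listed length. The first fit had no replicate block. Same-numbered libraries deviated together in all 18 pairs of libraries from different groups (correlation 0.496 to 0.828, median 0.752; -0.677 to 0.241 for different numbers), so the numbers pair the libraries, and values with the replicate block stand beside it. Deviations from a group mean cancel out within the group, so positive correlations within a number push those between different numbers down. The gap between these ranges is thus partly arithmetic. Each number had 4 different index labels. The block lowered the biological coefficient of variation from 33.4% to 12.7%. DESeq2 1.42.0, limma 3.58.1, other scaling, no filter, only the groups compared, and left-out libraries were the alternatives. The scripts were tested on simulated counts. Exons of 9 of the 28 genes (Cyp51, Fdft1, Fdps, Idi1, Lss, Mbtps2, Npc1, Scap and Tm7sf2) overlap another gene in GENCODE, so their counts are uncertain. Every member is named, and those past the test are given by library; of other lists, at most 3 genes a direction with the greatest change. Members and lists were chosen with earlier results of these data known. Map2, Hba-a1 and some sterol genes are not analysed here.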

Additional observations from a re-analysis of the deposited data

How the results depend on the processing

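Counts of the 28 genes called by edgeR without the replicate block were 0 in all 6 comparisons. The replicate block moved them to 8 (CT99021 against control), 5 (both compounds against control) and 6 (both against GW3965). DESeq2 without the block called 1 in each of the first pair, beside 2.29% and 3.14% of all genes it tested. With the replicate block as the base, no replicate block gave 0 in these 3 comparisons. Leaving out the libraries numbered 3 gave 16, 13 and 13, beside 25%, 25.1% and 28% of all genes. Leaving out those and GW3965+CT99021 replicate 2 left 1 library of both compounds, so calls from that fit are not given. The replicate 2 library had the highest Lss and Idi1 of its group, at 125 and 152 CPM. The library kept, replicate 1, had 74.1 and 111 CPM. The Lss interaction was then -0.70, a value that rests on that 1 library. In the 7 libraries kept, summed mesenchyme markers still spanned 220.2 to 2147 CPM. Leaving out each library in turn with the block gave 0 to 11, 2 to 8 and 2 to 8 calls, while 4.11% to 19%, 7.42% to 23.8% and 8.8% to 23.4% of all genes passed. Of 215 alternative counts 187 stayed within 1.5 times and 28 moved. Many of the 187 had a base of 0, where 0 again was scored as unchanged, so they do not measure how stable the calls are. Of 342 alternative values of called genes 263 kept their call, 79 lost it and 0 changed sign. Every called gene lost its call without the block. Among the 17 alternatives that keep the block, Soat1 kept its call in 17 for both compounds against control and against GW3965, as did Npc2 for the latter, while Cyp51 kept it in 9 for both against control. The cause of these shifts was not tested. DESeq2 with the replicate block called 12 (CT99021 against control), the 8 named above and Sqle, Sc4mol, Scap and Stard4, beside 19.6% of all genes it tested. No member had a mean under 8.12 CPM in any group. How far depth or the spread between libraries bounds what is detectable was not tested.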

Other observations

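The isoprenoid branch, which diverts farnesyl and geranylgeranyl diphosphate to protein prenylation, ubiquinone and dolichol, was read with a list of 11 genes. With CT99021, 1 rose, Rabggtb, a subunit of Rab geranylgeranyl transferase, by 0.61 ± 0.14 on the log2 scale (adjusted p = 0.0204, edgeR with the replicate block). With both compounds against control 3 rose: Rabggtb (0.80 ± 0.14), Pdss1 (0.38 ± 0.12), which makes the ubiquinone side chain, and Icmt (0.35 ± 0.10), which methylates prenylated proteins. GW3965 alone changed 0 of the 11 at the threshold. Of all genes, 8.23% rose with CT99021, 11.3% with both compounds and 0.0192% with GW3965, so 1 of 11 with CT99021 was near the share of all genes.

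Of 10 genes for SREBP turnover and its partner factors, Erlin2, part of a complex that degrades sterol-sensing proteins, fell with CT99021 by 0.28 ± 0.08 and Erlin1 rose with both compounds by 0.48 ± 0.11. Both compounds against GW3965 raised 3 of the 10: Erlin1 (0.54 ± 0.11), Nfya (0.27 ± 0.09), a subunit of the CCAAT-binding factor, and Sp1 (0.24 ± 0.06), the GC box factor. Of all genes, 7.59% fell with CT99021, 11.3% rose with both compounds against control and 11.8% rose against GW3965. The calls of 1 gene among the 10 were near those shares. Of 4 sterol oxidation genes 0 passed with the block in edgeR in any of these comparisons.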
